A study of Mus musculus with 6 samples.

Results

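Blood clots form when tissue factor, exposed where a vessel is breached, starts a cascade of serine proteases that ends in thrombin, which cuts fibrinogen to fibrin. Factor XIII then cross-links the fibrin, thrombomodulin on endothelium turns thrombin towards anticoagulation, and plasminogen activators make the plasmin that dissolves the clot. Thrombin and urokinase also signal to cells through surface receptors, and the urokinase system is known for matrix turnover in glandular tissue. Liver makes most of the circulating factors, whereas tissues such as the prostate express mainly the local parts of the system.

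The 10 genes described here are the rows of the deposited expression table with the symbols F2, F3, F5, F10, F13a1, Thbd, F2r, Plat, Plau and Plaur, and all 10 were found among the 34745 genes. The rule takes them by name, and the set was drawn up with earlier results of these data known. RNA was sequenced from prostate tissue of male C57BL/6 mice that were young adults at the start. In the T + E2 group (n = 3) each mouse carried a subcutaneous slow-release pellet of testosterone and estradiol for 12 weeks, renewed monthly. In the CON group (n = 3) the mice had the skin incision and its closure but no pellet. No engineered allele is named for either group, and the sources used here do not say which lobes were taken.

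Libraries held 14816146 to 16555549 counted reads. The luminal marker Pbsn, which encodes probasin, was present in all 6 mice but 9.81-fold lower in the T + E2 group, at 12336 to 16631 CPM in the CON and 1257 to 1752 CPM in the T + E2 mice (CPM are counts relative to library size, scaled by the TMM method, edgeR adjusted p = 2.45e-05). The luminal keratin Krt18 was also lower (log2 fold change -0.54, edgeR adjusted p = 0.00704), and Krt8 did not pass (edgeR adjusted p = 0.449). Transcripts of the seminal vesicle stood out in 2 libraries, where 7 marker genes summed to 10305 CPM in CON replicate 2 and 642 CPM in T + E2 replicate 2, against 0.628 to 4.10 CPM in the other 4. Calls that changed without these libraries are given beside the gene. Of the 15580 genes with enough reads to test, 7.64% passed both thresholds of the study (adjusted p below 0.05, log2 fold change above 1 in size), with 4.27% higher and 3.38% lower in the T + E2 group.

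Of the 10 genes, F13a1 rose and F2 fell past both thresholds, and F10 had too few reads for the test. F13a1, the catalytic subunit of the fibrin cross-linking factor XIII, was 2.30-fold higher in the T + E2 group. F2, which encodes prothrombin, was 4.90-fold lower but at a level near the detection limit. The other 7 genes, which include tissue factor, thrombomodulin, the thrombin receptor and both plasminogen activators, did not pass the test. The share called was thus 2 of 9 tested genes, and F2 reached the minimum of reads for testing only through its CON values, so the share is given as a description.

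The promoters of the changed genes are shown because sex steroids were the treatment and their receptors bind short DNA elements. The sequences are the 250 bases before the transcription start, from RefSeq on build GRCm38.p6, on the strand of the gene. Capitals mark AGAACA, an arm of the androgen response element, and GGTCA, an arm of the oestrogen response element, searched on both strands without overlap between the motifs.
F2 (chr2:91636458-91636707, minus strand): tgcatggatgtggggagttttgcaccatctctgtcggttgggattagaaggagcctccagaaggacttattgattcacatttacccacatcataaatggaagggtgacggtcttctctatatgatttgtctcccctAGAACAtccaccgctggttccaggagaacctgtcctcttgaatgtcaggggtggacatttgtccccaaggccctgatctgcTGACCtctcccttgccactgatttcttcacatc
F13a1 (chr13:37050245-37050494, minus strand): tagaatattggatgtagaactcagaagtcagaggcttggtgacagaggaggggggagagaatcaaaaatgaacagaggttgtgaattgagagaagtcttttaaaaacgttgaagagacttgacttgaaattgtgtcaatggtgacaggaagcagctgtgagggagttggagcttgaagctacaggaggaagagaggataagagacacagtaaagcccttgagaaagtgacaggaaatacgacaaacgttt
The F2 window held AGAACA starting 114 bases before the start of transcription and GGTCA on the opposite strand (read here as TGACC) 33 bases before it. The F13a1 window held neither. A window before a second RefSeq start of F13a1, not printed because it runs into an exon, held GGTCA 9 bases before that start. Over 32851 promoter windows of the same length, 16.1% held AGAACA and 35.2% held GGTCA, so these short matches were common. RefSeq windows were at hand for 7 of the 10 genes, and Thbd, Plat and Plau had no entry.

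Levels per gene length, as the deposited FPKM, placed F13a1 highest in both groups, at 9.61 ± 0.893 FPKM (SD, n = 3) in the CON and 21.6 ± 7.14 FPKM in the T + E2 group. Thbd followed at 8.82 ± 0.572 and 9.48 ± 0.994 FPKM, and Plat at 6.59 ± 1.01 and 7.60 ± 1.17 FPKM. In the CON group the ranges of F13a1 and Thbd overlapped, whereas in the T + E2 group every F13a1 value lay above every Thbd value. Plau, F2r and F3 formed a middle tier, with means of 3.45 to 3.96 FPKM in the CON and 3.54 to 4.23 FPKM in the T + E2 group, and their ranges overlapped in both groups. F5 and Plaur lay between 0.409 and 0.590 FPKM on average and also overlapped. F2 and F10 were lowest, and they changed places. F2 led in the CON group with 0.241 ± 0.0610 against 0.0591 ± 0.0333 FPKM, while in the T + E2 group F2 had 0.0474 ± 0.0226 FPKM and F10 had 0.147 ± 0.0694 FPKM, with ranges that overlapped. The deposited FPKM rest on the authors' gene lengths, which differed from the merged exons of GENCODE M21 most for F13a1, F10, Plat and Plaur, in F13a1 with 3927 against 6739 bases. On merged exons, a scale chosen after the data were seen, Thbd was the highest in the CON group, with F13a1 at 5.60 ± 0.520 FPKM below it. In the T + E2 group F13a1 still had the higher mean on that scale, at 12.6 ± 4.16 FPKM, but its range of 9.16 to 17.2 FPKM overlapped that of Thbd. Plat then lay below Plau, F2r and F3 by its mean in both groups.

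**Figure D1:**
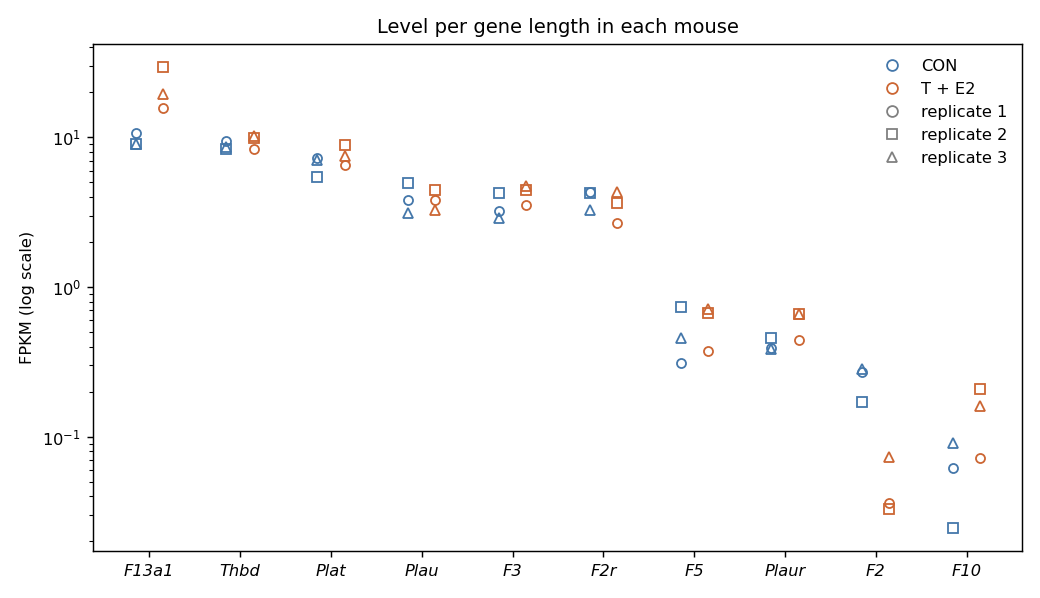
Deposited FPKM of the 10 genes on a log axis, with a point for each mouse (blue CON, orange T + E2, symbols for the replicate number). F13a1 is the only gene whose T + E2 points, at 15.7 to 29.5 FPKM, all lie above 15 FPKM, and F2 and F10 lie below 0.3 FPKM in every mouse.

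The coagulation factors and their cofactors were examined first. F3 (chromosome 3 of GRCm38, 121723537 to 121735048) encodes tissue factor, the membrane protein that starts the cascade. It had 10.7, 13.8 and 9.80 CPM in the CON mice and 12.4, 15.1 and 15.7 CPM in the T + E2 mice. The groups overlapped through CON replicate 2, and the log2 fold change of 0.33 (95% interval -0.06 to 0.72) did not pass the quasi-likelihood test of edgeR after Benjamini-Hochberg adjustment (adjusted p = 0.205).

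F5 (chromosome 1, 164151838 to 164220277) encodes factor V, the cofactor that factor Xa needs to activate prothrombin. Its level was 2.25, 5.31 and 3.39 CPM in the CON mice and 2.90, 4.99 and 5.20 CPM in the T + E2 mice. CON replicate 2 was the highest of all 6, so the groups overlapped, and the log2 fold change of 0.26 had a wide 95% interval of -0.56 to 1.08 (edgeR adjusted p = 0.648). The gene shares 262 exonic bases with Gm16548 on the opposite strand, and whether counting used the strand is not given in the sources used here.

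F10 (chromosome 8, 13037308 to 13056676) encodes factor X, the protease that activates prothrombin. It had 5, 2 and 8 reads in the CON mice and 6, 19 and 13 reads in the T + E2 mice, or 0.131 to 0.503 against 0.415 to 1.16 CPM. The groups overlapped, and the gene was below the minimum of reads for the test. Without that minimum its log2 fold change was 1.32 (95% interval 0.02 to 2.62) and did not pass (edgeR adjusted p = 0.184). Its transcripts match 440 other genes at 90% identity or more over stretches of at most 159 bases, so that reads on such a stretch are uncertain.

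F2 (chromosome 2, 91625320 to 91636414), prothrombin, is the precursor of thrombin and is known as a product of the liver. It had 22, 14 and 25 reads in the CON mice and 3, 3 and 6 reads in the T + E2 mice. Scaled, this was 1.46, 0.918 and 1.57 CPM against 0.207, 0.182 and 0.400 CPM, so that every T + E2 value lay below every CON value and 2 of the T + E2 mice were at 3 reads, taken as the detection limit. The log2 fold change was -2.29 (standard error 0.43, 95% interval -3.28 to -1.31, adjusted p = 0.00837 from edgeR's test). F2 reached the minimum of reads for this test only through its CON values. Without that minimum the log2 fold change was also -2.29 (95% interval -3.35 to -1.24, edgeR adjusted p = 0.0100). With the minimum kept and each mouse left out in turn, the log2 fold change lay between -2.71 and -2.08. The adjusted p of these edgeR fits stayed between 0.0122 and 0.0415. On the log2(FPKM + 1) scale, which compresses low values, limma gave -0.24. Liver markers, 5 in all, summed to 0.992 to 1.88 CPM in the CON and 3.67 to 7.05 CPM in the T + E2 mice. Of the 3 that could be tested Alb alone passed, with 0 to 0.262 CPM in the CON and 1.87 to 5.17 CPM in the T + E2 mice (edgeR adjusted p = 0.00273), while Apoa2 and Ttr did not (edgeR adjusted p = 0.172 and 0.934). Alb had 0, 4 and 2 reads in the CON mice and reached the minimum of reads for testing only through its T + E2 values. The part of liver transcripts in the F2 result was not tested. No other gene of GENCODE M21 overlaps F2, and no other transcript resembled it at 90% identity over 100 bases.

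F13a1 (chromosome 13, 36867178 to 37050244) encodes the A subunit of factor XIII, a transglutaminase that is found in plasma, in platelets and in tissue macrophages. Its level was 40.9, 34.8 and 35.9 CPM in the CON mice and 64.6, 117 and 75.7 CPM in the T + E2 mice. The groups did not overlap, and the T + E2 mice varied far more than the CON mice, with replicate 2 highest. The means were 37.2 ± 3.28 and 85.7 ± 27.5 CPM (SD, n = 3 each), and the log2 fold change was 1.20 (standard error 0.21, 95% interval 0.72 to 1.69, adjusted p = 0.00609 from edgeR's test). Without T + E2 replicate 2 the log2 fold change was 0.91 (edgeR adjusted p = 0.00534), and without both libraries that held seminal vesicle transcripts it was 0.87 (edgeR adjusted p = 0.0184), so the rise kept its significance but not a fold change above 2. The antisense gene Gm30489 shares 74 exonic bases with F13a1.

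**Figure D2:**
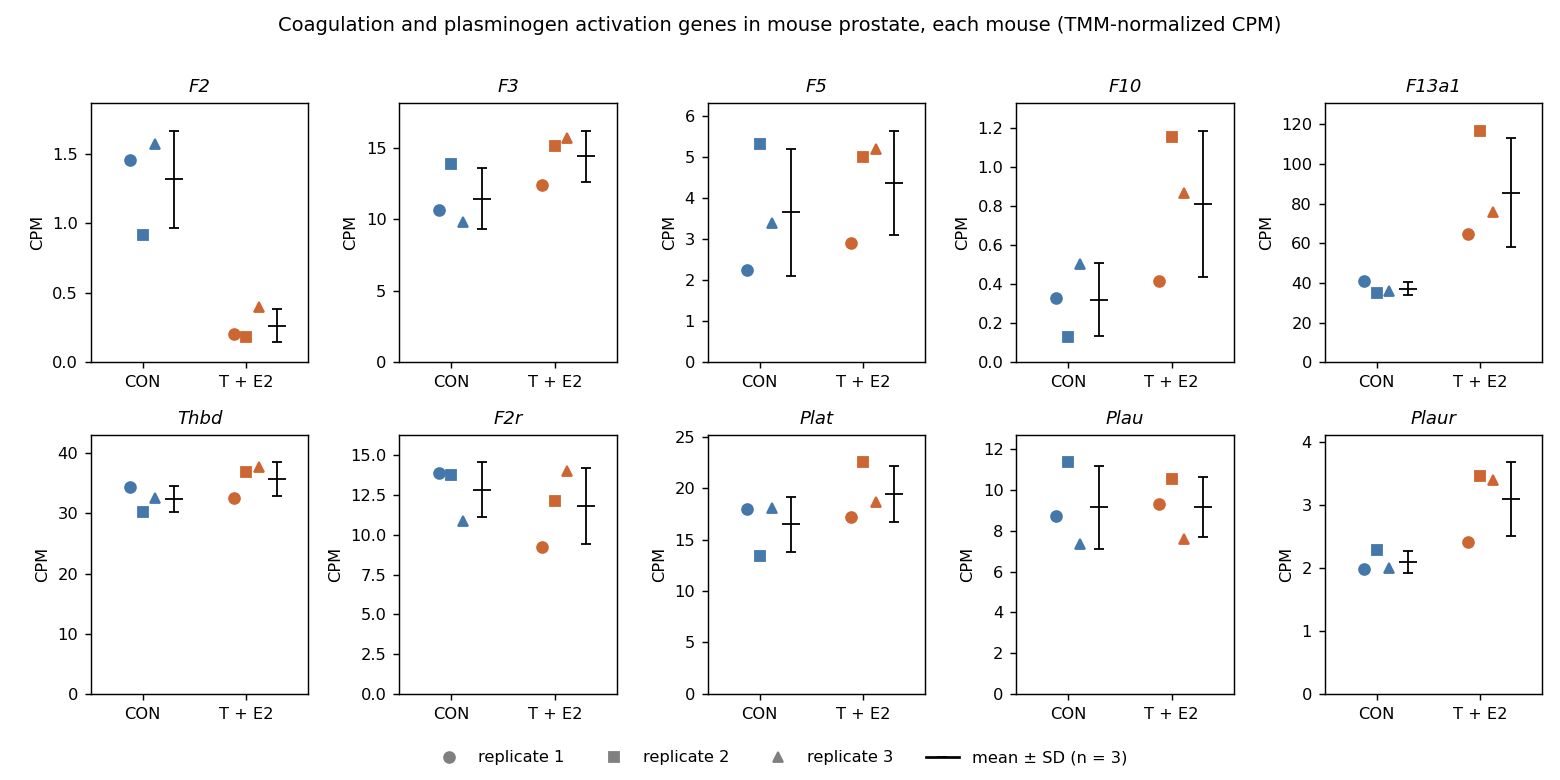
TMM-normalized CPM of each of the 10 genes, with a panel per gene, a point per mouse and the mean ± SD (n = 3) beside the points. Groups are apart for F2, F13a1 and Plaur, and they overlap for the other 7 genes.

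As with F13a1, most macrophage markers and all red cell markers were higher in the T + E2 group. No tested endothelial, fibroblast, platelet or neutrophil marker passed by edgeR's adjusted p. Of the smooth muscle and of the mast cell markers, 2 of 4 each were lower. Of 3 basal epithelial markers, Trp63 was higher (log2 fold change 0.57, edgeR adjusted p = 0.0108). Krt5 and Krt14 did not pass (edgeR adjusted p = 0.542 and 0.274). In bulk tissue, more cells of a type and more RNA per cell cannot be told apart. Of 10 macrophage markers, all tested, 7 were higher in the T + E2 group by edgeR's adjusted p and none was lower, where 10.4% of all tested genes were higher and 9.25% lower, and 4 passed both thresholds. These 4 were Cd163, Lyve1, Folr2 and Mrc1, which are known from tissue-resident macrophages, with log2 fold changes of 1.41, 1.40, 1.28 and 1.14, while the general markers Adgre1, Csf1r and Cd68 did not pass (0.31, 0.23 and 0.14, edgeR adjusted p = 0.475, 0.36 and 0.521). The summed macrophage markers were at 277, 228 and 225 CPM in the CON mice and 364, 558 and 397 CPM in the T + E2 mice. The order of the T + E2 mice was that of F13a1, as it was for the summed red cell markers (133, 419 and 136 CPM). Among the CON mice, replicates 2 and 3 stood in the opposite order to F13a1. F13a1 equalled 14.8, 15.3 and 16% of the macrophage sum in the CON mice, against 17.7, 20.9 and 19.1% under T + E2, a ratio chosen after its values were seen. The ratio was 1.25-fold higher in the T + E2 group, with no overlap (exact two-sided permutation test, p = 0.1, the smallest possible with 3 mice against 3). The sum includes Adgre1, Csf1r and Cd68, which did not pass. The log2 fold change of F13a1, 1.20, lay within those of the 4 markers past both thresholds, 1.14 to 1.41. The part of macrophages in the change of F13a1 was not tested.

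Red cell markers were higher in the T + E2 mice, and platelet and neutrophil markers did not pass. All 5 red cell markers passed both thresholds, and their sum was 53.8 to 66.1 CPM in the CON mice and 133, 419 and 136 CPM in the T + E2 mice, with replicate 2 again highest. Of 8 platelet markers 3 could be tested and none passed, with sums of 8.04 to 9.97 CPM in the CON and 7.60, 21.7 and 11.3 CPM in the T + E2 mice. Pf4, a defining platelet gene, had 4.27 to 5.23 CPM in the CON and 5.53, 10.8 and 4.33 CPM in the T + E2 mice. Neutrophil markers summed to at most 4.68 CPM, with S100a9 alone tested (edgeR adjusted p = 0.392). The part of blood in the change of F13a1 was not tested.

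**Figure D3:**
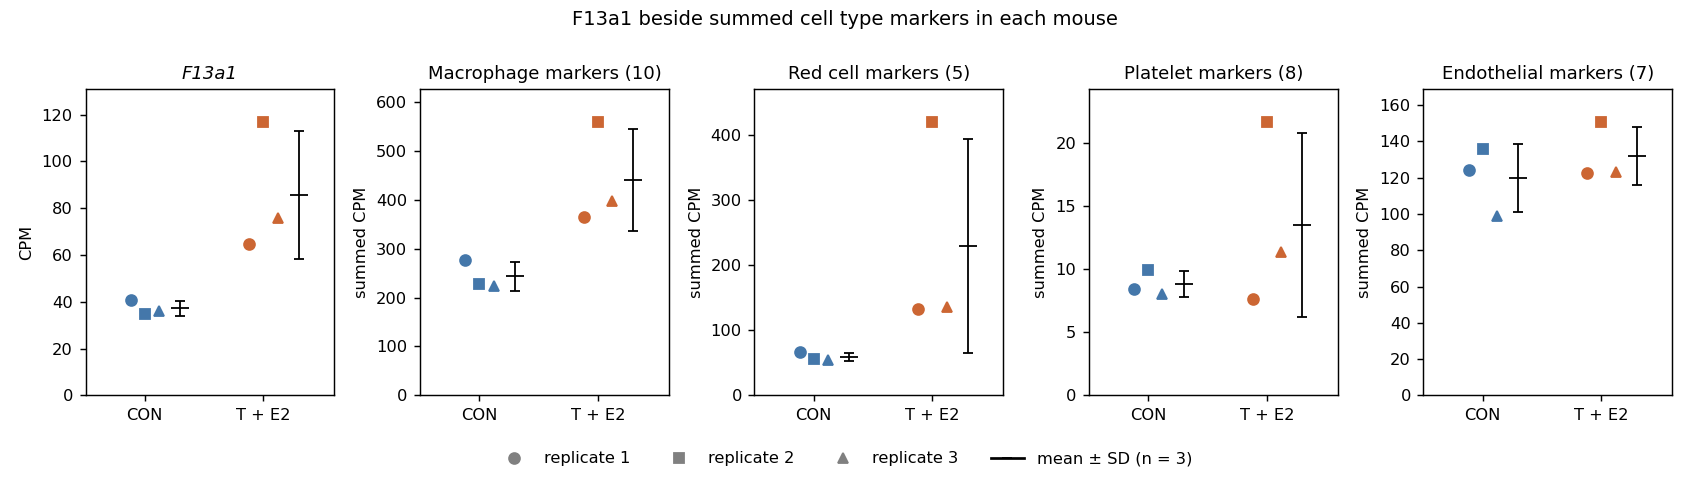
F13a1 (CPM) and the summed CPM of macrophage, red cell, platelet and endothelial markers in each mouse, with the mean ± SD (n = 3). T + E2 replicate 2 is the highest of all mice in every panel, and endothelial sums overlap between the groups.

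Neither gene for a membrane protein that binds thrombin passed the test. Thbd (chromosome 2, 148404466 to 148408188) is a gene with a single exon that encodes thrombomodulin, the endothelial receptor through which thrombin activates protein C. It had 34.5, 30.2 and 32.5 CPM in the CON mice and 32.6, 36.9 and 37.7 CPM in the T + E2 mice. The groups overlapped, and the log2 fold change of 0.14 had the narrowest interval of the 10 genes, -0.09 to 0.37, or a fold of 0.941 to 1.29 (edgeR adjusted p = 0.35).

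F2r (chromosome 13, 95601804 to 95618459) encodes PAR1, the receptor that thrombin activates by cutting its extracellular end. The CON mice had 13.9, 13.8 and 10.9 CPM and the T + E2 mice 9.26, 12.2 and 14 CPM. The highest and the lowest value were both in the T + E2 group, and the log2 fold change was -0.12 (95% interval -0.54 to 0.30, edgeR adjusted p = 0.68). None of 7 endothelial markers passed either, and their sums of 98.9 to 136 CPM in the CON and 122 to 151 CPM in the T + E2 mice overlapped.

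Plasminogen activation was covered by 3 of the genes. Plat (chromosome 8, 22757744 to 22782847) encodes tissue-type plasminogen activator, which acts mainly on fibrin. The CON mice had 18, 13.4 and 18.1 CPM and the T + E2 mice 17.2, 22.5 and 18.7 CPM, with CON replicate 2 lowest and T + E2 replicate 2 highest. The log2 fold change was 0.24 (95% interval -0.13 to 0.61, edgeR adjusted p = 0.324), and without both replicates 2 it was -0.0086.

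Plau (chromosome 14, 20836662 to 20843388) encodes urokinase, the activator that works at cell surfaces. It had 8.73, 11.3 and 7.35 CPM in the CON mice and 9.33, 10.5 and 7.60 CPM in the T + E2 mice. The CON range enclosed the T + E2 range, with a log2 fold change of 0.0022 (95% interval -0.47 to 0.47, edgeR adjusted p = 0.995). The deposited FPKM of Plat was 1.91, 1.09 and 2.28 times that of Plau in the CON and 1.71, 1.98 and 2.27 times in the T + E2 mice. On merged exons the ratio was 0.447 to 0.934 over the 6 mice, so which activator is higher per length depends on the gene length used. No difference in this ratio between the groups was detected (log2 difference 0.23, exact two-sided permutation test, p = 0.7). The smallest p possible in that test with 3 mice against 3 is 0.1.

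Plaur (chromosome 7, 24462484 to 24475968) encodes the urokinase receptor, which holds urokinase at the cell surface. Its level was 1.98, 2.30 and 2.01 CPM in the CON mice and 2.42, 3.47 and 3.40 CPM in the T + E2 mice. Every T + E2 value was above every CON value, the smallest gap being that between CON replicate 2 and T + E2 replicate 1. The log2 fold change of 0.56 (95% interval 0.01 to 1.11) had an unadjusted p of 0.0472 and an adjusted p of 0.139 from edgeR's test, so it did not pass. Groups without overlap were found for 3 of the 9 tested genes, F2, F13a1 and Plaur, and for 40.7% of all tested genes.

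The mouse with the highest or lowest value differed between genes in the CON group. Among the CON mice, replicate 2 was the highest for F3, F5, Plau and Plaur and the lowest for F2, F10, F13a1, Thbd and Plat. Among the T + E2 mice, replicate 1 was the lowest for 8 of the 10 genes, the exceptions being F2 and Plau.

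The 2 tested genes whose profiles lay closest to each changed gene were found by the root mean square difference of centred log2 CPM over the 6 mice. For F13a1 they were Sult1e1, the oestrogen sulfotransferase, at a difference of 0.0749 and Nmb, which encodes neuromedin B, at 0.0868. Sult1e1 had 25.3 to 28.8 CPM in the CON mice and 51.2, 93.9 and 61.1 CPM in the T + E2 mice, a log2 fold change of 1.34 (edgeR adjusted p = 0.0038). For F2 they were D930019O06Rik, at 0.121, and Arhgap36, at 0.163, both with less than 2 CPM in every mouse. Such genes, Sult1e1 included, were picked for their likeness to a changed gene in these same mice. Their differences between the groups follow from that choice and are no separate result.

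The remaining genes of the cascade place these results. A list of 43 further genes of coagulation, anticoagulation, protease-activated receptors, fibrinolysis and the vitamin K cycle held 19 that could be tested. Of these, 5 rose past both thresholds (26.3%) and none fell, where 4.27% of all tested genes rose and 7.64% were called in either direction. By the adjusted p alone 8 were higher and none lower, where 10.4% of all tested genes were higher and 19.6% passed in either direction. The median log2 fold change of the 19 tested genes was 0.54, beside -0.002 over all tested genes. The list was chosen with earlier results of these data known, so these shares are given as a description.

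Inhibitors and anticoagulant genes included the largest rises of the list. Serpine2 encodes protease nexin 1, an inhibitor of thrombin, urokinase and tissue-type plasminogen activator. It had 143, 161 and 144 CPM in the CON mice and 1379, 1248 and 1077 CPM in the T + E2 mice. The rise was 8.27-fold and the groups were far apart (log2 fold change 3.05, standard error 0.13, edgeR adjusted p = 8.55e-06). In deposited FPKM Serpine2 was at most 1.80 times the sum of Plat and Plau in the CON mice and 10.6 to 14.5 times in the T + E2 mice, a ratio chosen after its values were seen (exact two-sided permutation test, p = 0.1, the smallest possible). The size of these multiples depends on the authors' gene lengths, which for Plat were 2531 against 6241 merged exon bases.

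Pros1 encodes protein S, the cofactor of activated protein C. It was at 20.6, 20.9 and 21.2 CPM in the CON mice and 85.8, 102 and 73.9 CPM in the T + E2 mice. This was a 4.18-fold rise with a very small spread among CON mice (log2 fold change 2.06, standard error 0.13, edgeR adjusted p = 5.25e-05). Procr, the endothelial receptor of protein C, rose from 1.82 to 2.82 CPM to 3.25, 6.14 and 5.53 CPM (log2 fold change 1.05, edgeR adjusted p = 0.0443), a call that held in only 1 of 6 fits with a mouse left out. Proc, protein C itself, had 13.8 to 14.1 CPM in the CON and 17 to 22.1 CPM in the T + E2 mice and did not pass (edgeR adjusted p = 0.0563), nor did Tfpi, the tissue factor pathway inhibitor (log2 fold change 0.89, edgeR adjusted p = 0.05003). Tfpi passed both thresholds without CON replicate 2 (edgeR adjusted p = 0.0308) and without T + E2 replicate 3 (edgeR adjusted p = 0.0165), and with a replicate block its adjusted p was 0.0347. With DESeq2 the adjusted p of Tfpi was 0.00746. In edgeR it was 0.0494 with median-of-ratios scaling, 0.0397 without the minimum of reads, 0.0494 with an FPKM minimum of 1 and 0.0592 with total-count scaling. Limma gave an adjusted p of 0.0969 on log2(FPKM + 0.1) and 0.0954 on log2(FPKM + 1).

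**Figure D4:**
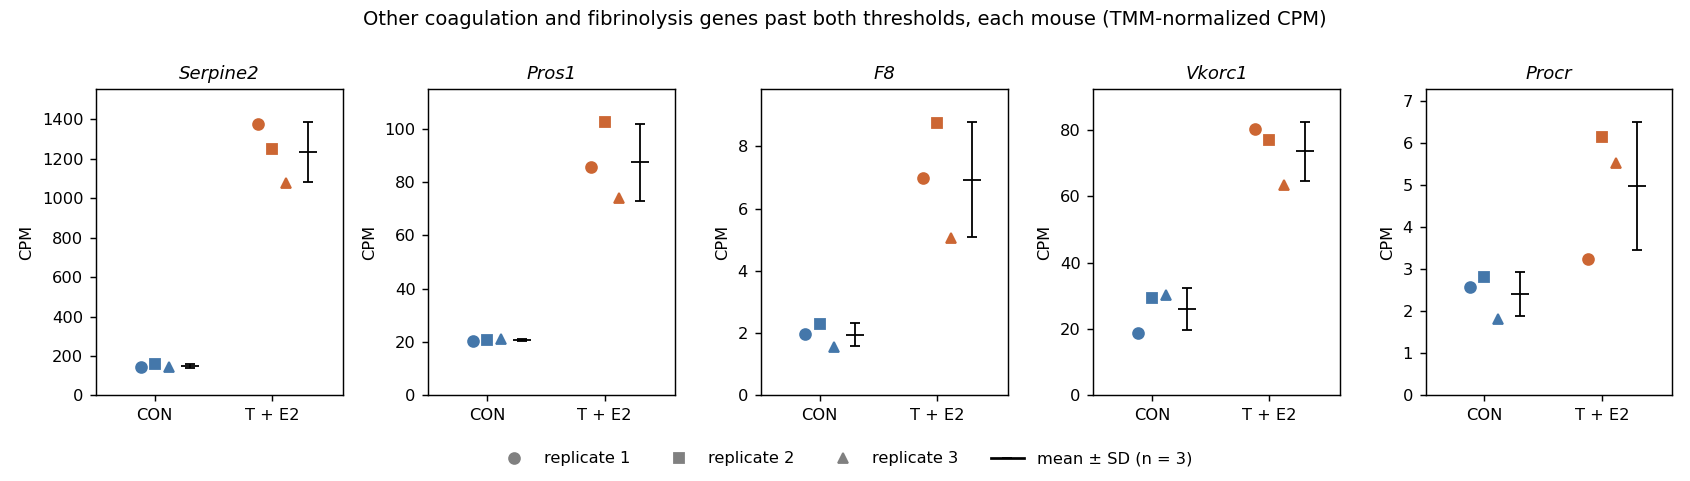
TMM-normalized CPM of the 5 further genes past both thresholds, with a point per mouse and the mean ± SD (n = 3). Serpine2 is near 150 CPM in the CON and at least 1077 CPM in the T + E2 mice, and Procr has the smallest gap between the groups.

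Among procoagulant genes F8, the cofactor factor VIII, rose from 1.57 to 2.30 CPM in the CON to 5.07, 6.98 and 8.76 CPM in the T + E2 mice (log2 fold change 1.83, edgeR adjusted p = 0.00299), and limma on log2(FPKM + 1) gave 0.45. Vwf, which carries factor VIII in blood, had a log2 fold change of 0.65 (edgeR adjusted p = 0.0233), below the fold threshold. Its adjusted p stayed below 0.05 in 3 of 6 edgeR fits with a mouse left out, and was 0.0644 without T + E2 replicate 2, 0.0915 without both replicates 2 and 0.0645 with a replicate block. Vkorc1, the enzyme that recycles vitamin K for the carboxylation of clotting factors, rose 2.81-fold, from 18.8 to 30.2 CPM to 63.5 to 80.1 CPM (log2 fold change 1.49, edgeR adjusted p = 0.00137). The carboxylase Ggcx and the related Vkorc1l1 did not pass (log2 fold changes 0.12 and -0.53, edgeR adjusted p = 0.455 and 0.304), but without T + E2 replicate 2 Vkorc1l1 fell past both thresholds, at -1.08 (edgeR adjusted p = 0.0151). Of the protease-activated receptors other than F2r, F2rl1 (PAR2) had 27.8 to 29.9 CPM in the CON and 39.5 to 44.5 CPM in the T + E2 mice (log2 fold change 0.58, edgeR adjusted p = 0.0038), and F2rl2 did not pass (-0.55, edgeR adjusted p = 0.411). Anxa2, a surface receptor of plasminogen and Plat, had a log2 fold change of 0.54 (edgeR adjusted p = 0.0231), and its partner S100a10 did not pass (0.27, edgeR adjusted p = 0.264). The adjusted p of Anxa2 stayed below 0.05 in 2 of 6 edgeR fits with a mouse left out and was 0.0698 without T + E2 replicate 2.

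The substrates of the system were at or near 0. Plg, plasminogen, had at most 1 read in any mouse, as had each of the fibrinogen genes Fga and Fgb, while Fgg had at most 3. No difference in these genes was detectable at this depth, since 3 reads correspond to 0.182 to 0.207 CPM.

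**Figure D5:**
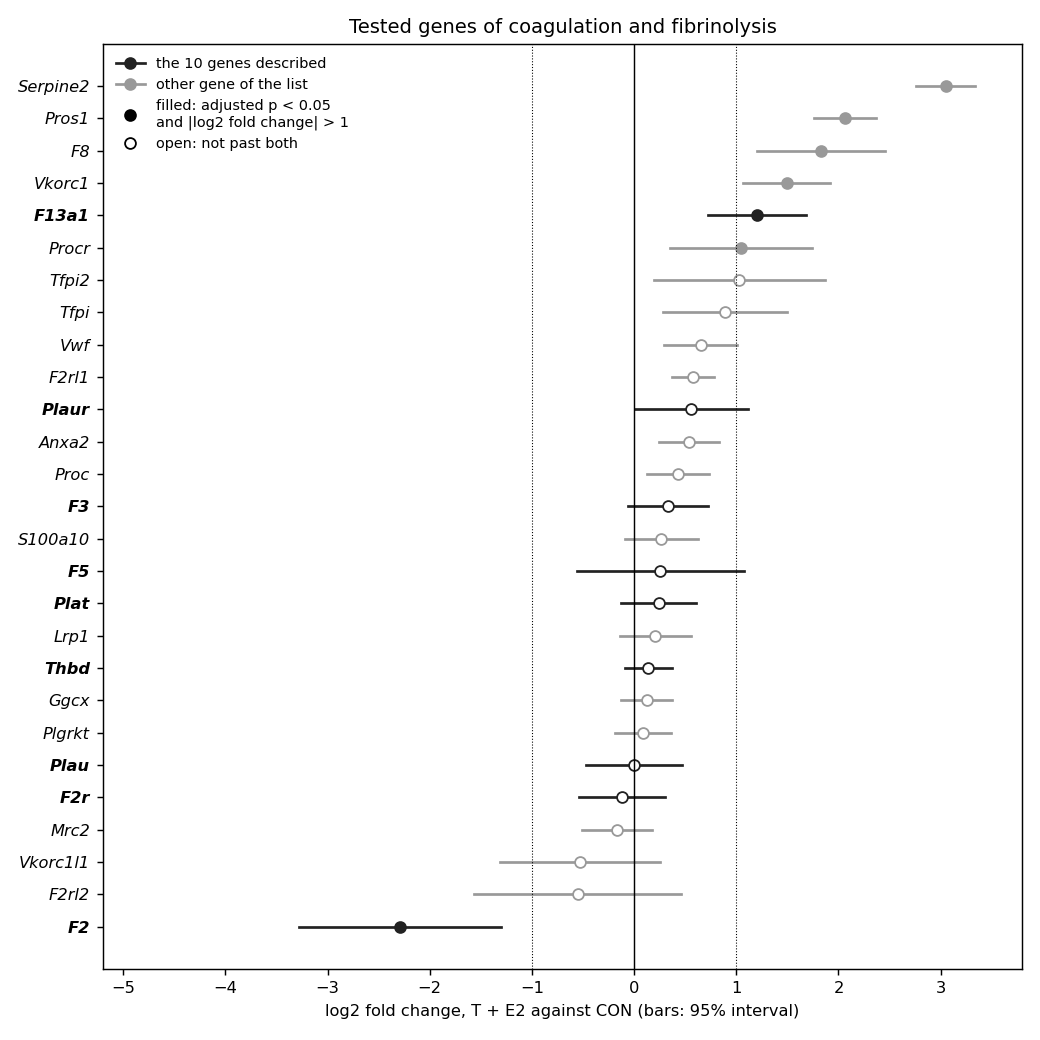
Log2 fold changes (T + E2 against CON) with 95% intervals for tested genes of the whole list, with the 9 tested genes of the 10 described in bold and black and the others in grey. Filled points passed both thresholds. F2 at -2.29 is the only filled point on the left, and Serpine2 at 3.05 is farthest to the right.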

How the data were processed

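Total RNA of prostate tissue was sequenced for 6 mice after 12 weeks. The authors deposited read counts per gene without normalization and FPKM, which equal those counts divided by gene length and library total. Per the labels, TopHat, Bowtie2 and HTSeq were used. Versions, genome build, annotation and strand setting are not given in the sources used here, and the gene coordinates lie on GRCm38.

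For the test, edgeR 4.0.16 was run in R 4.3.3 (filterByExpr with a minimum count of 10 and a total of 15, TMM, glmQLFit and glmQLFTest), with Benjamini-Hochberg adjustment over 15580 genes. Each standard error was derived from the fold change and its F statistic, and 95% intervals use the moderated degrees of freedom. The detection limit of 3 reads covers counting error only. Overlapping genes came from GENCODE M21 and similar transcripts from BLAST+ 2.17.0+ (at least 90% identity over 100 bases). Figures were drawn with matplotlib 3.10.9, and the procedure was tested on simulated data. No replicates were duplicates, since chi-square per degree of freedom between them was 16.7 to 36.4.

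The 10 genes and the lists were chosen with earlier results of these data known. Named were the 10 genes, listed genes past both thresholds, up to 2 more per class with the highest FPKM, and the 2 closest profiles. The genes at or near 0 were named after their values were seen. Some genes of the lists are not reported here. Alternatives were other scalings and filters, DESeq2 1.42.0, limma 3.58.1 on log2(FPKM + 0.1) and log2(FPKM + 1), a replicate block and each mouse left out.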

Additional observations from a re-analysis of the deposited data

How the results depend on the processing

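The direction of F2 and of F13a1 held under every alternative run, and F10 could be tested in 6 of them without passing. F2 ranged from -2.71 to -2.08 on the log2 scale with a mouse left out, and F13a1 from 0.91 to 1.37. F2 fell under the fold threshold with limma on log2(FPKM + 1), at -0.24, where the pseudocount exceeds its level, and it was not tested when a minimum FPKM of 1 was set. F13a1 fell under the fold threshold without T + E2 replicate 2, and without both replicates 2 at 0.87, an alternative chosen after seeing the data. The number of the 10 genes passing was 2, and 1 under those 4 settings (1 to 2 with a mouse left out). For the whole list of 53 genes 7 passed, with 4 under limma on log2(FPKM + 1) and 4 with the FPKM minimum of 1, and 6 to 7 with a mouse left out. Over all genes 1191 passed, with 561 under limma on log2(FPKM + 1), 3061 without the fold threshold and 972 to 1152 with a mouse left out.

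Small differences changed sign. Plau was at -0.040 with total-count scaling, -0.0052 with the FPKM minimum of 1, -0.026 and -0.023 with limma on log2(FPKM + 0.1) and log2(FPKM + 1), and between -0.13 and 0.19 with a mouse left out. F2r ranged from -0.26 to 0.027 with a mouse left out, and Plat was at -0.0086 without both replicates 2. The log2 ratio of Plat to Plau ranged from -0.08 to 0.45 with a mouse left out. None of these passed a test. Procr lost its call in 10 of 14 alternatives.

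The replicate numbers name different mice, and deviations of mice with the same number correlated at -0.05, 0.03 and 0.05, so no pairing was assumed. With a replicate block F2 was at -2.30 (edgeR adjusted p = 0.0187) and F13a1 at 1.16 (edgeR adjusted p = 0.0198), both past the thresholds, and 6 of the listed genes passed, Procr being lost (edgeR adjusted p = 0.0796). By the adjusted p alone the block also lost Vwf (0.0645) and gained Tfpi (0.0347). Depth limits F2 and F10 most, since 3 reads corresponded to 0.182 to 0.207 CPM.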
